A study of Mus musculus with 40 samples.

Results

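The genes described here are 31 complement components, regulators and receptors of the mouse, taken by gene symbol from a fixed list out of the 24499 genes of a liver RNA-sequencing study. All 31 had counts in the files and all 31 passed the filter on low counts, which kept 14355 genes. From their known main source, 20 were grouped as hepatocyte-made, 9 as leukocyte-made and 2 (Cfd, made mainly by fat cells, and Cd55, made by many cell types) as neither. The 40 libraries came from whole livers of adult male C57BL/6 mice, and each animal was taken as separate because every label carries its own number, so p-values measure the spread between these samples. The first treatment was either BD, a diet label, or DDC at 0.05% w/w of the diet, which was fed to induce chronic fibrosis. DDC is 3,5-diethoxycarbonyl-1,4-dihydrocollidine, a compound known to cause porphyrin plugs in bile ducts. The second was none, BD, a diet marked HFD, or HFD with ethanol given continuously through a gastric feeding tube at up to 27 g/kg/day for up to 28 days. BD and HFD are not spelled out in the labels, which also do not say whether mice without ethanol carried a tube, so ethanol and feeding route cannot be told apart.

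The 8 groups were Control 0D (BD, no second treatment, n = 4), DDC 0D (DDC, no second treatment, n = 4), Control 28D (BD then BD, n = 5), HFD (BD then HFD, n = 6), EtOH (BD then HFD with ethanol, n = 4), DDC+Cont (DDC then BD, n = 5), DDC+HFD (DDC then HFD, n = 6) and DDC+EtOH (DDC then HFD with ethanol, n = 6). The ethanol groups therefore share HFD with their comparators, and the later DDC groups differ from DDC 0D in stage as well as in the second treatment. Only the Control 28D title names a day for the second period. Values below are CPM, counts relative to the reads on genes of the library scaled by its TMM factor, listed in replicate order. For groups of 6 the lowest and highest library and the median are given. A gene was called higher or lower at an adjusted p under 0.05 in edgeR's quasi-likelihood test with Benjamini-Hochberg adjustment over all 14355 genes tested, and log2 fold changes are given with their standard errors (SE).

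Complement is a cascade of plasma proteins that tags microbes and debris, attracts leukocytes and punches pores in membranes. The classical route starts with C1q on antibody, the lectin route with mannose-binding lectins or ficolins on sugars, and the alternative route with factors B and D on surfaces. All routes meet at the cleavage of C3 and end in the terminal components, which build the membrane attack complex. The liver is known as the main source of most circulating components, whereas C1q and properdin come mostly from macrophages and other myeloid cells. In whole tissue, fewer cells of a type and less RNA per cell cannot be told apart.

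Per kilobase of exon, C3 was the most abundant member in Control 0D livers at 1420.4 CPM per kb, and its range of 1382 to 1484 overlapped the 1252 to 1400.1 CPM per kb of Vtn, which encodes vitronectin. Clu, which encodes the chaperone clusterin, followed at 616 CPM per kb and Cfb, which encodes factor B, at 539. C9, C8a, C4b, Hc and Cfi lay between 279 and 306 CPM per kb with ranges that overlapped. The leukocyte-made members were far lower, from 39.4 CPM per kb for C1qa down to 0.281 for C5ar1, and Masp1 was the one hepatocyte-grouped member among them at 10.3. The members lie in several clusters in GRCm38, the build named mm10 in the submitters' notes. C1qa (chr4:136895917-136898803), C1qc (chr4:136889804-136893065) and C1qb (chr4:136880129-136886187) are neighbours, as are C8b (chr4:104766317-104804548) and C8a (chr4:104815679-104876398). C2 (chr17:34862604-34898265), Cfb (chr17:34856374-34862518) and C4b (chr17:34728380-34743882) lie together on chromosome 17, and C6 (chr15:4727175-4814967) and C9 (chr15:6445327-6498751) on chromosome 15. Gm20547 overlaps C2 and Cfb on their own strand, as Gm49368 does Itgam, so strand could not separate reads in these overlaps. The strand setting of the counting is not known, so reads of genes that overlap on opposite strands cannot be told apart either. Among these, C8g overlaps Fbxw5, Masp2 overlaps Tardbp, Masp1 overlaps Rtp4 and Fcna overlaps Fcnaos. Hc overlaps Gm13449, C8a overlaps Gm17662 and Cd55 overlaps Gm16083 in the same way. C4b and C4a are near-identical copies, as are C1ra and C1rb, and reads placed on more than 1 copy were tallied apart, so these levels are uncertain.

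Of the 31 members, 22 matched a RefSeq promoter entry (GRCm38.p6), and the 250 bases before the start were searched on both strands for letters known to be bound by liver or myeloid factors. The HNF1-type letters GTTAAT stood in 6 of 14 windows of hepatocyte-made members (C1ra, C4bp, C8a, C8b, Hc and Vtn), in 1 of 7 of leukocyte-made members (Cfp) and in 6.43% of all 32851 promoters. The C/EBP-type letters TTGCNNAA stood in C3 and C9 (9.56% of all promoters) and the STAT-type letters TTCNNNGAA in C8a and Masp2 (7.02%). The windows of C8b, C8a and Hc are shown because these terminal components moved with DDC or ethanol, that of C6 because among the hepatocyte-made members it fell the most with ethanol, and that of C3 because it rose with DDC. Capitals mark the matched letters, and C6 holds none of them.
C8b (chr4:104766067-104766316, plus strand): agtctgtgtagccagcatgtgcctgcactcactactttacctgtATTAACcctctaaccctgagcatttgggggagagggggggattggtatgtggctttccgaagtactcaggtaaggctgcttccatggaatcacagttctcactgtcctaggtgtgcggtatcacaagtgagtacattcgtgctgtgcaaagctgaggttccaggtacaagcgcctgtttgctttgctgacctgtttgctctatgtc
C8a (chr4:104876399-104876648, minus strand): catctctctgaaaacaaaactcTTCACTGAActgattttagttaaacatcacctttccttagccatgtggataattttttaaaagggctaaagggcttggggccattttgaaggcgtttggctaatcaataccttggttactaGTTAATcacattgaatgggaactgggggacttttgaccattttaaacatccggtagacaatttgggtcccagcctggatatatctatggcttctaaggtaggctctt
Hc (chr2:35061413-35061662, minus strand): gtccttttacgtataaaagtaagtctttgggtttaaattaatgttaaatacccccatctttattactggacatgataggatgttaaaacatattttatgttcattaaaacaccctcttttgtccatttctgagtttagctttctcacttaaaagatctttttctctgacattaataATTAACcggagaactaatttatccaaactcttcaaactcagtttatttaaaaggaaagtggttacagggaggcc
C6 (chr15:4726960-4727209, plus strand): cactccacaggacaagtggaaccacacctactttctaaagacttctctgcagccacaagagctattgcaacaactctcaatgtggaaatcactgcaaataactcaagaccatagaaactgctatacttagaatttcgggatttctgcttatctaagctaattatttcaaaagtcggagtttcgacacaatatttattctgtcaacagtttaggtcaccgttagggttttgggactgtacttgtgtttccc
C3 (chr17:57228137-57228386, minus strand): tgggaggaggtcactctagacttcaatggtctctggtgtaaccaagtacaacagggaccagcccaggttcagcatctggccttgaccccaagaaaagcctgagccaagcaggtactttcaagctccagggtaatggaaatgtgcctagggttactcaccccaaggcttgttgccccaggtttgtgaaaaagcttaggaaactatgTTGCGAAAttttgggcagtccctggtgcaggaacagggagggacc

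The PU.1-type letters GAGGAA stood in 4 of 7 windows of leukocyte-made members (C1qb, C1qc, Fcna and Itgam), in 0 of 14 of hepatocyte-made members and in 23.3% of all promoters. The 3 windows shown are those of members that rose with DDC, with the matched letters, read on either strand, in capitals. A match of this length is a description of the sequence only.
C1qb (chr4:136886201-136886450, minus strand): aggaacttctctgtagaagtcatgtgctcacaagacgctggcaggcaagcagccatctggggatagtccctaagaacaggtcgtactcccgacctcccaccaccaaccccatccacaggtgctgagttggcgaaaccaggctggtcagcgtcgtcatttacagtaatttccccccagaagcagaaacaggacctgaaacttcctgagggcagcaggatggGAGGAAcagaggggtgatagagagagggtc
C1qc (chr4:136892915-136893164, minus strand): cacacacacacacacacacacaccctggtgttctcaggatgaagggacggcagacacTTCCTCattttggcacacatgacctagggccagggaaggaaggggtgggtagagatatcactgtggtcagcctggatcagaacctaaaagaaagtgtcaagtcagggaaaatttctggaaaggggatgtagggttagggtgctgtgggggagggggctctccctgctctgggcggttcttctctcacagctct
Itgam (chr7:128062390-128062639, plus strand): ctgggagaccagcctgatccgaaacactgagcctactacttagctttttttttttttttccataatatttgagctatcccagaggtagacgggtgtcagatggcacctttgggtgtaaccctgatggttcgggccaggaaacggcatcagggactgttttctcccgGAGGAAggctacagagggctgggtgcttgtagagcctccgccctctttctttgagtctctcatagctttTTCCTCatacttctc

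Depth was 7197939 to 26398061 reads on genes per library (median 13653548). Hepatocyte markers were high in every group, with 10 of 10 marker genes read and 119855 to 132308 summed CPM in Control 0D. They fell in DDC 0D (8 of 10 called lower, 89263 to 103121 CPM). Over the same comparison, 5 of 6 recruited-macrophage markers rose (summed 10.8 to 15.6 CPM in controls and 208 to 263 CPM after DDC), as did 3 of 6 Kupffer-cell markers, 5 of 6 neutrophil markers tested (3.03 to 4.29 and 35.9 to 52.6 CPM, with Ly6g, a defining marker, at 0 in all 8 libraries) and 6 of 6 bile duct markers (39.0 to 49.0 and 912 to 1062 CPM). DDC+HFD replicates 32, 33, 35 and 37 stood apart by 57.2 to 253 CPM of S100a8, a neutrophil transcript, against 2.16 to 13.0 in DDC+EtOH. Pancreatic transcripts exceeded 1000 CPM in 7 libraries (HFD 14, DDC+Cont 24, DDC+HFD 30, 33 and 36, DDC+EtOH 38 and 41). With library totals in place of TMM factors the median of all genes moved by 0.35 in DDC 0D against Control 0D, and the calls over all genes went from 3954 higher and 3515 lower to 7179 and 1426, so changes with DDC are relative to that scaling.

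With DDC feeding most called members made by hepatocytes fell and most made by leukocytes rose. In DDC 0D against Control 0D, 10 of 31 members were higher and 11 lower, beside 27.5% of all genes higher and 24.5% lower. Of the 20 hepatocyte-made members 10 fell, 2 rose and 8 did not pass the test (median log2 fold change -0.48), whereas 8 of the 9 leukocyte-made members rose (median 1.78). The median over all genes tested was 0.01. With library totals the members' split was 12 higher and 9 lower, beside 7179 and 1426 of the 14355 genes tested. In that setting C1ra and Serping1 were no longer called, and Cfi (0.27) and Cfb (0.50) were called higher.

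C3, whose cleavage all routes share, measured 7194, 7268, 7623 and 7097 CPM in Control 0D livers and 9870.4, 13582, 10594 and 11594 CPM in DDC 0D livers. All 4 DDC livers lay above all 4 controls, and C3 rose 1.56-fold (log2 0.65 ± 0.21, adjusted p = 0.0110). Clu, a fluid-phase inhibitor of the membrane attack complex and a stress chaperone, measured 968, 1154, 1159 and 1182 CPM in controls and 2575, 3576, 3083 and 2396 CPM after DDC. It was the hepatocyte-grouped member with the largest rise, 2.61-fold (log2 1.38 ± 0.16, adjusted p = 2.99e-09), although bile duct and stromal cells are also known to express it. Cfb, the alternative-route protease, was not called (log2 0.15 ± 0.16), nor was Cfi, the protease that cleaves C3b and C4b (log2 -0.09 ± 0.12).

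Of the terminal components, the C8 chains and C9 fell, and C5 and C6 were not called. C8b, the beta chain of C8, measured 431, 499, 544 and 523 CPM in controls and 109, 118, 157 and 127 CPM after DDC, a 3.91-fold fall (log2 -1.97 ± 0.18, adjusted p = 2.81e-11). C8g, the gamma chain, measured 325, 341, 327 and 328 CPM and then 119, 90.5, 122 and 119, a 2.93-fold fall (adjusted p = 3.25e-13). In both genes every DDC liver lay below every control. C8a, the alpha chain, measured 973, 1077, 1106 and 1164 CPM in controls and 313, 538, 563 and 346 CPM after DDC (log2 -1.30 ± 0.19, adjusted p = 6.11e-07). C9, which polymerises into the pore, measured 559.8, 585, 699 and 665 CPM and 245, 265, 360.2 and 301 CPM (log2 -1.10 ± 0.22, adjusted p = 5.40e-05). Neither pair of groups overlapped. C6, which joins C5b, did not pass the test (log2 -0.42 ± 0.23, adjusted p = 0.138), nor did Hc, which encodes C5 (log2 -0.21 ± 0.14). Summed over C6, C8a, C8b, C8g and C9, without Hc, the level was 2845 ± 239 CPM (SD, n = 4) in controls and 1204 ± 224 CPM (SD, n = 4) after DDC. With Hc added the sums were 4394 ± 343 CPM (SD, n = 4) and 2547 ± 379 CPM (SD, n = 4).

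Among the genes of the lectin route, 3 of 4 hepatocyte-made members fell. Mbl1, a mannose-binding lectin, measured 206, 225, 244 and 226 CPM in controls and 82.1, 78.7, 91.0 and 84.0 CPM after DDC, a 2.68-fold fall (adjusted p = 3.38e-09). Mbl2, its relative, measured 256, 260.1, 260.3 and 250.2 CPM and 154, 106, 148 and 102 CPM (log2 -1.01 ± 0.17, adjusted p = 3.72e-06). Masp2, the lectin-bound protease that cleaves C4 and C2, measured 173, 185, 182 and 189 CPM and 100.1, 99.9, 106 and 90.4 CPM (log2 -0.88 ± 0.12, adjusted p = 6.27e-08). In these 3 genes the groups did not overlap, while Masp1, another lectin-bound protease, was not called (log2 -0.14 ± 0.18). In the classical route, C1ra, a C1 protease, measured 248, 237, 254 and 255 CPM and 155, 182, 189 and 156 CPM (log2 -0.54 ± 0.11, adjusted p = 0.000119). C2 (log2 -0.27 ± 0.13, adjusted p = 0.0781) and C4b (log2 -0.08 ± 0.18) were not called.

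Among the regulators, Serping1, the C1 inhibitor, measured 493, 462, 472 and 472 CPM in controls and 240.3, 370.3, 301 and 291 CPM after DDC (log2 -0.66 ± 0.17, adjusted p = 0.00171). Vtn, which binds the nascent attack complex, measured 2184, 2344, 2403 and 2442 CPM and 1534, 1442, 1597 and 1506 CPM (log2 -0.62 ± 0.12, adjusted p = 4.59e-05). Both were lower in all 4 DDC livers. C4bp, a cofactor for C4b cleavage, was not called (log2 -0.21 ± 0.12). The 10 hepatocyte-made falls moved with the fall of hepatocyte markers (median -0.65 over 10 genes), and the part of that fall in them was not tested.

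**Figure D1:**
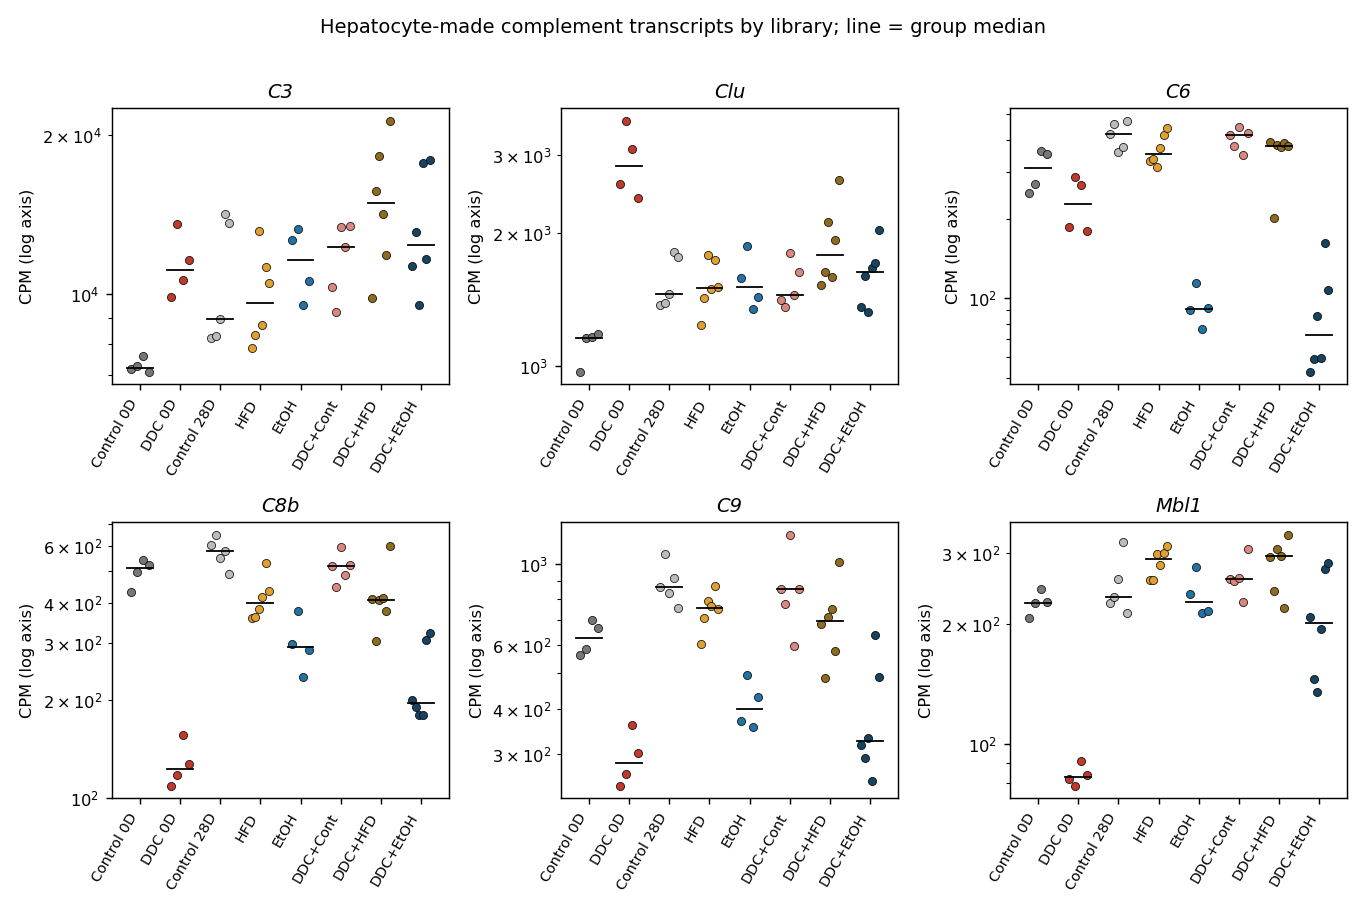
CPM (log axis) of 6 hepatocyte-made members in each of the 40 libraries, by group, with the group median as a line. DDC 0D livers stand apart from Control 0D livers in C3, Clu, C8b, C9 and Mbl1, and the EtOH and DDC+EtOH livers lie below their HFD comparators in C6.

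Of the 9 leukocyte-made members, 8 rose and Fcna was not called. Itgam, the alpha chain of complement receptor CR3 on neutrophils and macrophages, measured 1.05, 1.44, 2.27 and 1.54 CPM in controls and 19.0, 22.2, 14.1 and 24.7 CPM after DDC. It was the member with the largest rise, 12.5-fold (log2 3.64 ± 0.52, adjusted p = 3.64e-07), and no library overlapped. Itgb2, its beta chain, shared with other leukocyte integrins, measured 10.1, 7.51, 10.6 and 10.3 CPM and 32.4, 47.3, 36.2 and 50.3 CPM (log2 2.11 ± 0.27, adjusted p = 3.20e-08). The receptors for the released fragments also rose. C3ar1, the C3a receptor, measured 3.40, 3.45, 3.58 and 3.83 CPM in controls and 15.3, 32.2, 16.3 and 26.7 CPM after DDC (log2 2.67 ± 0.28, adjusted p = 4.80e-10). C5ar1, the C5a receptor, measured 0.647, 0.926, 0.681 and 0.638 CPM and 4.34, 5.20, 2.99 and 6.10 CPM (log2 2.67 ± 0.34, adjusted p = 2.72e-08). All 4 DDC livers lay above the controls for both receptors.

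The chains of C1q, which is made by tissue macrophages, all rose. C1qa measured 49.3, 31.1, 38.8 and 44.6 CPM in controls and 106, 113, 104 and 129 CPM after DDC (log2 1.47 ± 0.18, adjusted p = 1.60e-08). C1qb measured 39.9, 25.6, 30.0 and 34.7 CPM and 100.2, 134, 92.7 and 121 CPM (log2 1.78 ± 0.18, adjusted p = 2.32e-10). C1qc measured 47.2, 31.7, 39.3 and 43.3 CPM and 115, 119.5, 99.2 and 132 CPM (log2 1.53 ± 0.17, adjusted p = 2.96e-09). The groups did not overlap in any chain. C1qa held 35.14 to 36.40% of the C1q CPM in controls and 30.79 to 35.07% after DDC, and C1qb 27.7 to 29.3% and 31.2 to 36.6%. Neither of these shares overlapped, while that of C1qc did (34.6 to 36.3% and 32.6 to 35.9%). Cfp, which encodes properdin, the stabiliser of the alternative-route convertase, measured 24.8, 15.3, 20.2 and 21.0 CPM and 29.5, 38.7, 29.6 and 46.2 CPM (log2 0.83 ± 0.21, adjusted p = 0.00113). Fcna, a ficolin of Kupffer cells, was the exception among the 9, with 37.5, 45.5, 42.3 and 44.6 CPM in controls and 32.9, 33.9, 34.9 and 41.6 CPM after DDC (log2 -0.24 ± 0.19, adjusted p = 0.287). The leukocyte-made members summed to 0.913 ± 0.117% (SD, n = 4) of the hepatocyte-made CPM in controls and to 2.13 ± 0.286% (SD, n = 4) after DDC. These rises moved with those of the macrophage and neutrophil markers given above, and the part of cell number in them was not tested.

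Cfd, factor D of the alternative route, measured 4.21, 1.85, 4.65 and 2.39 CPM in controls and 0.343, 0.452, 0.130 and 0.105 CPM in DDC 0D livers. It was lower in all 4 DDC livers (log2 -3.74 ± 1.40, adjusted p = 0.0253), but leaving out Control 0D replicate 3, DDC 0D replicate 7 or DDC 0D replicate 8 ended the call (adjusted p = 0.052, 0.059 and 0.07). The fat marker Adipoq was at 0.0514 to 0.162 CPM in controls and 0 to 0.226 CPM after DDC. The 5 fat markers summed to 4.63 to 6.54 CPM in controls and 5.47 to 10.47 CPM after DDC, so their sum did not fall with Cfd. Cd55, which dissociates convertases on cell surfaces, was not called (log2 -0.33 ± 0.18).

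Of 28 further complement genes tested, 6 rose and 12 fell with DDC, beside the 27.5% of all genes higher and 24.5% lower. The risers with the largest changes were Itgax, the alpha chain of receptor CR4 (log2 4.48 ± 0.48), C7, the terminal component between C6 and C8 (log2 1.98 ± 0.35), and Cd93, an endothelial and myeloid glycoprotein (log2 1.57 ± 0.14). C7 thus rose while C8a, C8b, C8g and C9 fell. Large falls were in Susd4, a membrane regulator (log2 -3.08 ± 0.35), and Cd59b, an inhibitor of C9 insertion (log2 -1.60 ± 0.24). These 5 genes had adjusted p values of 1.18e-05 or less. Cd59b has a related gene, Cd59a, and how far reads shared with it affect the count of Cd59b is not known.

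**Figure D2:**
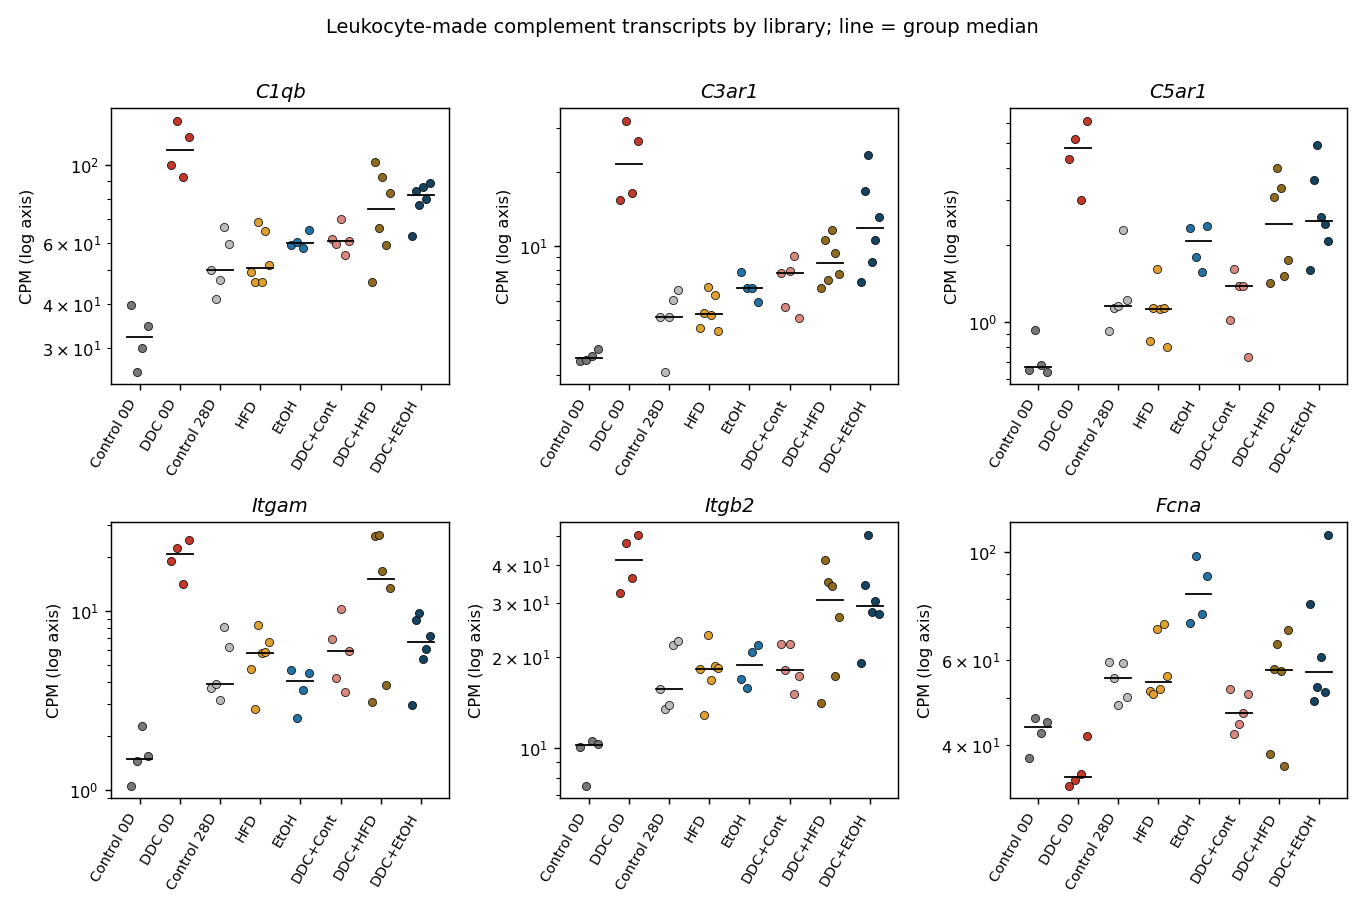
CPM (log axis) of 6 leukocyte-made members in each of the 40 libraries, by group, with the group median as a line. DDC 0D livers lie above Control 0D livers in all but Fcna, and DDC+HFD livers spread widely in Itgam, from 3.10 to 26.4 CPM.

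Once DDC had been followed by BD, no member was called different from Control 28D. In DDC+Cont against Control 28D, 0 of 31 members were called higher or lower by edgeR's quasi-likelihood test, beside 1.23% of all genes higher and 0.286% lower. DESeq2 also called 0, and 1 member, Masp2, had an unadjusted p under 0.05 (log2 -0.26 ± 0.10, adjusted p = 0.275). The 95% interval of the log2 difference was -0.24 to 0.51 for C3, -0.47 to 0.15 for C8b, -0.21 to 0.35 for Mbl1 and -0.09 to 0.52 for C1qb. These intervals leave out the estimated changes of these genes in DDC 0D, which carry errors of their own. For C3 the test of the difference between the stages, given below, did not pass. For Itgam the 95% interval was wider, -0.54 to 1.14. Among the further complement genes, C7 was higher (log2 1.32 ± 0.31, adjusted p = 0.0156) and Susd4 was lower (log2 -1.43 ± 0.28, adjusted p = 0.00293). In these livers 3 of 6 recruited-macrophage markers and 3 of 6 bile duct markers were still called higher, while 0 of 10 hepatocyte markers differed.

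In DDC+Cont against DDC 0D, which shares the DDC 0D libraries with the first comparison, 18 members were higher and 8 lower, beside 20.2% and 23.2% of all genes. Both groups received DDC, and they differ in stage and in the second treatment. The 18 were 16 hepatocyte-made members with Cfd and Cd55, and the 8 were Clu and 7 leukocyte-made members. Over the same comparison 6 of 10 hepatocyte markers were higher, and 5 of 6 recruited-macrophage, 2 of 6 neutrophil, 5 of 6 bile duct and 6 of 6 stellate-cell markers were lower, and their part in these changes was not tested. C8b measured 519, 448, 596, 487 and 524 CPM in DDC+Cont, 4.03-fold above DDC 0D (log2 2.01 ± 0.18, adjusted p = 2.04e-11). Mbl1 measured 258, 255, 259, 227 and 307 CPM (3.11-fold, adjusted p = 1.72e-10), and Cfd 9.50, 5.58, 7.36, 2.11 and 2.38 CPM (log2 4.47 ± 1.34, adjusted p = 0.00736). C5ar1 fell to 1.01, 1.62, 1.38, 1.38 and 0.731 CPM (log2 -1.89 ± 0.30, adjusted p = 3.37e-06), Itgam to 6.92, 4.20, 10.2, 3.49 and 5.94 CPM (log2 -1.71 ± 0.43, adjusted p = 0.00141) and C3ar1 to 7.75, 5.63, 7.91, 9.10 and 5.12 CPM (log2 -1.68 ± 0.25, adjusted p = 9.06e-07). No library of either group overlapped in these 6 genes. C3 was not called (log2 0.04 ± 0.20), with 10269, 9204, 13391, 12263 and 13433 CPM in DDC+Cont. With library totals the median of all genes moved by -0.30, the split was 13 higher and 9 lower, and C2, C4bp, C6, Cfi and Cd55 were no longer called. Over all 14355 genes tested that setting called 1184 higher and 6562 lower, against 2899 and 3324 with TMM factors. Of the further complement genes 15 rose and 3 fell, led by Susd4 (log2 1.84 ± 0.34), C4a (log2 1.81 ± 0.38) and Apcs, serum amyloid P (log2 1.22 ± 0.44), and by Itgax (log2 -2.51 ± 0.39), Cd93 (log2 -1.40 ± 0.13) and Vsig4, the macrophage receptor for C3 fragments (log2 -0.60 ± 0.21).

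The DDC effect itself differed between the stages for 20 members. In the test of the difference, the effect in DDC+Cont minus the effect in DDC 0D, 11 were positive and 9 negative, beside 14.5% and 17.6% of all genes. The positive ones were 10 hepatocyte-made members and Cfd, from 0.40 for C1ra to 1.81 for C8b among the former, and the negative ones were Clu (-1.40) and 8 leukocyte-made members, down to -3.34 for Itgam. C1ra was the least secure of them, with an adjusted p of 0.0432 that passed 0.05 in 10 of 40 fits without 1 library (up to 0.0790). Leaving out DDC 0D replicate 8 ended the call of Cfd (adjusted p = 0.052) and leaving out DDC 0D replicate 5 that of Serping1 (adjusted p = 0.058). With library totals the median of all genes moved by -0.27 and the split was 8 positive and 10 negative, beside 965 and 4383 of the 14355 genes tested. C3, whose log2 change was 0.65 at 0D and 0.14 later, did not pass the test of the difference (-0.51 ± 0.29, adjusted p = 0.177).

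**Figure D3:**
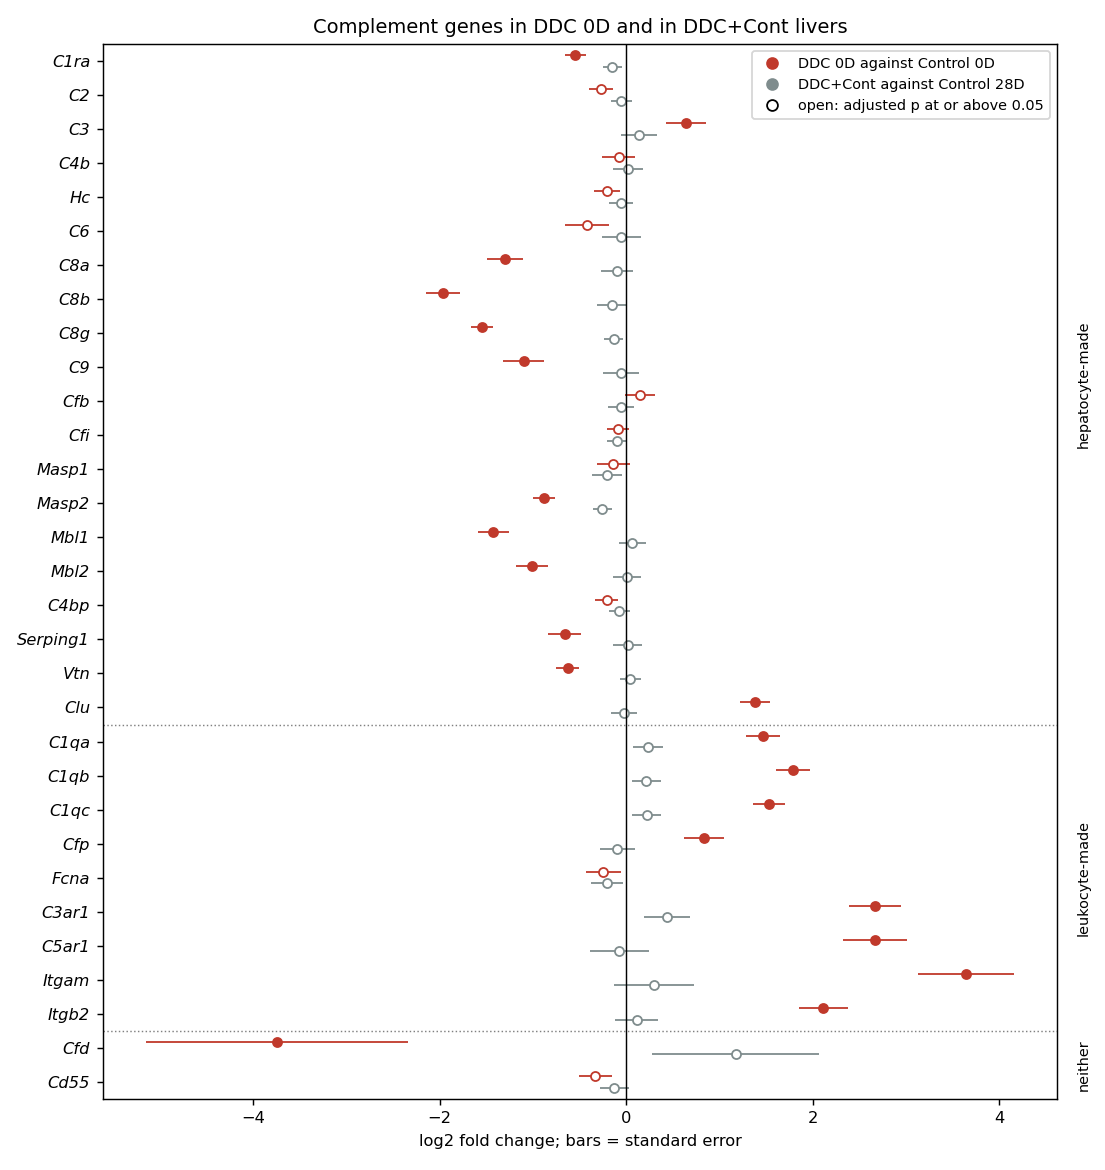
Log2 fold changes of the 31 members in DDC 0D against Control 0D and in DDC+Cont against Control 28D, with standard errors as bars. Filled points passed an adjusted p of 0.05, as 21 members did in the first comparison and 0 in the second.

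The Control livers themselves differed in complement between the stages. In Control 28D against Control 0D, 5 members were higher and 0 lower, beside 1.62% and 0.836% of all genes. With no member lower at an adjusted p under 0.05, 17 of 31 had an unadjusted p under 0.05, beside 15.8% of all genes, and 29 had a log2 fold change above 0, beside 51.4%. C4b, the shared C4 of the classical and lectin routes, measured 1771, 1436, 1549 and 1501 CPM at 0D and 2417, 2616, 2918, 3686 and 3389.9 CPM at 28D (log2 0.94 ± 0.17, adjusted p = 0.00166). Hc measured 1430.4, 1494, 1595 and 1678 CPM and 2327, 2485, 2365, 2629 and 2567 CPM (log2 0.68 ± 0.14, adjusted p = 0.00500). The groups did not overlap in either gene. C1qb was also higher, at 50.2, 41.3, 47.1, 66.8 and 59.4 CPM (log2 0.70 ± 0.17, adjusted p = 0.0171), as were Serping1 at 612, 596, 610.1, 837 and 969 CPM (log2 0.61 ± 0.17, adjusted p = 0.0379) and Cfi (log2 0.46 ± 0.11, adjusted p = 0.0200). C3 reached 8234, 8304, 8954, 14148 and 13620.0 CPM, above all Control 0D livers, but did not pass the test (adjusted p = 0.154). Over the same comparison 4 of 7 acute phase genes and 3 of 6 neutrophil markers were higher, and their part in these differences was not tested. The calls of C1qb, Cfi and Serping1 were ended by leaving out 1 of 4, 3 and 6 libraries (Control 0D replicates 2 and 3 and Control 28D replicates 12 and 13 for C1qb, Control 0D replicates 1, 2 and 4 for Cfi, and all 4 Control 0D libraries with Control 28D replicates 12 and 13 for Serping1), with adjusted p up to 0.103, 0.0694 and 0.147. Without Control 0D replicate 2 the count was 2, and without DDC+HFD replicate 30, which enters only through the shared spread, it was 9. DESeq2 called 11 members higher, and the fit of these groups alone 14. Over all 14355 genes tested DESeq2 called 413 higher and the fit of these groups alone 430, against 233 in the main fit. C4a (log2 1.59 ± 0.37) and C5ar2, the second C5a receptor (log2 0.58 ± 0.16), were the further complement genes called.

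No member was called with HFD alone. In HFD against Control 28D, 0 of 31 members were called by edgeR or DESeq2, beside 0.216% higher and 0.16% lower of all genes, and 3 (C8b, Masp2 and Mbl2) had an unadjusted p under 0.05. C8b measured 602, 648, 549, 579.6 and 491 CPM in Control 28D and 358 to 530.2 (median 400.0) CPM in HFD (log2 -0.47 ± 0.15, adjusted p = 0.225), and it was called lower in the fit of these groups alone (adjusted p = 0.049). The 95% interval for C3 was -0.45 to 0.26 and for C6 -0.57 to 0.22. None of the 28 further complement genes was called in edgeR, with 4 at an unadjusted p under 0.05.

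After DDC, C5ar1 was higher with HFD at the edge of the threshold. In DDC+HFD against DDC+Cont, 1 of 31 members was higher and 0 lower, beside 1.87% and 1.53% of all genes. C5ar1 measured 1.42 to 3.98 (median 2.42) CPM in DDC+HFD against 1.01, 1.62, 1.38, 1.38 and 0.731 in DDC+Cont (log2 1.00 ± 0.29, adjusted p = 0.0471), and the groups overlapped. Leaving out a single library ended this call in 20 of 40 fits (adjusted p up to 0.140). Without the 4 DDC+HFD libraries with over 50 CPM of S100a8 its log2 fold change was 0.22 (adjusted p = 0.836), and without DDC+HFD replicate 30 the counts were 3 higher and 1 lower. Itgam, at 3.10 to 26.4 (median 15.0) CPM, did not pass the test (log2 1.29 ± 0.40, adjusted p = 0.0612). Its values were 13.4 to 26.4 CPM in the 4 libraries with over 50 CPM of S100a8 and 3.10 and 3.86 CPM in the other 2. In this comparison 5 of 6 neutrophil markers were higher, and Fcnb, a ficolin of neutrophils, was the further complement gene that rose (log2 3.06 ± 0.78, 0 to 4.57 CPM), while C4a fell (log2 -1.20 ± 0.33). The part of the neutrophil transcripts in these changes was not tested beyond the fit without those libraries.

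With all 40 libraries in the fit, 8 of 20 hepatocyte-made members fell with ethanol without earlier DDC and 14 of 20 after it. Among them C6 fell the most in both settings. These 2 counts depend on the fit, as given below. In EtOH against HFD, 9 of 31 members were lower and 2 higher, beside 5.61% and 7.84% of all genes. In DDC+EtOH against DDC+HFD, 15 were lower and 0 higher, beside 8.02% and 8.53%. Hepatocyte-made members made up 8 of the 9 and 14 of the 15, with medians over the 20 of -0.28 and -0.42 against 0.00 and -0.01 over all genes tested. The 2 comparisons share no library. All 8 hepatocyte-made members called lower without DDC (C4bp, C6, C8a, C8b, C8g, C9, Hc and Mbl2) were also among the 14 called lower after DDC, which is 57.1% of these. Over all genes tested, 452 were lower in both, 56.1% of the 806 lower without DDC and 39.3% of the 1151 lower after DDC.

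C6 measured 316 to 444 (median 354) CPM in HFD livers and 89.9, 114, 76.3 and 92.1 CPM in EtOH livers. After DDC it measured 201 to 390.4 (median 379) CPM in DDC+HFD livers and 52.6 to 162 (median 72.4) CPM in DDC+EtOH livers. Every ethanol liver lay below every comparator liver in both settings, also below DDC+HFD replicate 32, which at 201 CPM stood apart from the 375 to 390.4 CPM of its group. The fall was 3.97-fold without DDC (log2 -1.99 ± 0.23, adjusted p = 1.03e-07) and 4.03-fold after DDC (log2 -2.01 ± 0.20, adjusted p = 3.49e-09). Every alternative setting run kept both calls. C6 was not called in DDC 0D against Control 0D, where C8b, C8g, C8a and C9 fell.

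C9 measured 602 to 872 (median 757) CPM in HFD and 369, 496, 356 and 431 CPM in EtOH livers (log2 -0.86 ± 0.20, adjusted p = 0.00272), with no overlap. After DDC its values were 487 to 1011 (median 699) CPM without and 253 to 636 (median 325) CPM with ethanol (log2 -0.87 ± 0.18, adjusted p = 0.000562), and the groups overlapped. C8a measured 1247 to 1583 (median 1472) CPM in HFD and 823, 1152, 744 and 982 CPM in EtOH livers (log2 -0.65 ± 0.18, adjusted p = 0.0110). After DDC, C8a measured 1047 to 1797 (median 1315) CPM and 434 to 940.2 (median 573) CPM (log2 -1.07 ± 0.16, adjusted p = 5.33e-06), and in neither setting did the groups overlap. Leaving out EtOH replicate 22 ended the first C8a call (adjusted p = 0.064). Hc fell in both settings, with 1816 to 2524 CPM in HFD against 1379 to 1661 CPM in EtOH livers (log2 -0.56 ± 0.13, adjusted p = 0.00316) and 1893 to 2811 CPM in DDC+HFD against 1042 to 1756 CPM in DDC+EtOH livers (log2 -0.79 ± 0.12, adjusted p = 6.87e-06). C8b was at the threshold without DDC (log2 -0.47 ± 0.16, adjusted p = 0.0499), and 27 of 40 fits without 1 library ended that call (adjusted p up to 0.201), whereas after DDC it was called lower in every fit without 1 library (log2 -0.87 ± 0.15, adjusted p = 4.28e-05). C6, C8a, C8b, C8g and C9 summed to 3303 ± 294 CPM (SD, n = 6) in HFD and 1953 ± 310.3 CPM (SD, n = 4) in EtOH livers, and with Hc to 5554 ± 531 CPM (SD, n = 6) and 3483 ± 379 CPM (SD, n = 4). After DDC the sums without Hc were 3064 ± 557 CPM (SD, n = 6) in DDC+HFD and 1526 ± 467 CPM (SD, n = 6) in DDC+EtOH livers. With Hc they were 5369.8 ± 864 CPM (SD, n = 6) and 2864 ± 784 CPM (SD, n = 6).

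In the lectin route, Mbl2 measured 286 to 369 (median 336) CPM in HFD and 240.2, 224, 168 and 175 CPM in EtOH livers (log2 -0.72 ± 0.15, adjusted p = 0.00101), and 223 to 443 against 118 to 189 CPM after DDC (log2 -0.96 ± 0.14, adjusted p = 3.30e-06). The groups did not overlap in either setting. Mbl1 was called lower after DDC only (log2 -0.45 ± 0.13), against -0.27 ± 0.15 without DDC, and the test of the difference did not pass. C4b fell after DDC, with 3028 to 3803 CPM in DDC+HFD against 1292 to 2833 CPM in DDC+EtOH livers (log2 -0.74 ± 0.14, adjusted p = 0.000369) and missed the threshold without DDC (log2 -0.46 ± 0.16, adjusted p = 0.0531). Among the regulators, C4bp fell in both settings (log2 -0.51 ± 0.11 and -0.48 ± 0.10), and Cfi, Serping1 and Vtn after DDC (log2 -0.45 ± 0.10, -0.40 ± 0.14 and -0.34 ± 0.10), as did C1ra (log2 -0.32 ± 0.09). The Serping1 call was ended in 19 of 40 fits without 1 library (adjusted p up to 0.143), that of Mbl1 without DDC+EtOH replicate 39 or 40 (adjusted p up to 0.0597), that of Vtn without DDC+HFD replicate 37 or DDC+EtOH replicate 40 (up to 0.0550) and that of C1ra without DDC+EtOH replicate 39 (0.0564). The calls of C4bp and Cfi after DDC were lost with only the groups compared (adjusted p = 0.077 and 0.072). They were also lost without the DDC+HFD libraries with over 50 CPM of S100a8 (0.264 and 0.254). The calls of C1ra, Mbl1, Serping1 and Vtn were lost in both of these fits as well. Their adjusted p values were 0.145, 0.171, 0.210 and 0.194 with only the groups compared. Without the libraries high in S100a8 they were 0.340, 0.291, 0.219 and 0.505. These calls were lost too without the 7 libraries with pancreatic transcripts (adjusted p up to 0.185).

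C3 was not called with ethanol in either setting, at 7863 to 13162 (median 9580.3) CPM in HFD and 12642, 13256, 9519 and 10574 CPM in EtOH livers (log2 0.21 ± 0.19, 95% interval -0.17 to 0.59) and at 9791 to 21308 (median 14901) CPM in DDC+HFD and 9529.9 to 17958 (median 12359) CPM in DDC+EtOH livers (log2 -0.16 ± 0.17, 95% interval -0.51 to 0.18). C3 made up 32.4 to 39.5% of the hepatocyte-made CPM in HFD and 42.7 to 46.1% in EtOH livers. After DDC the shares overlapped, at 36.2 to 47.6% in DDC+HFD and 42.6 to 56.2% in DDC+EtOH livers. C2, the classical and lectin-route protease, rose without DDC, from 136 to 228 (median 168) CPM in HFD to 228, 265, 217 and 214 CPM in EtOH livers (log2 0.39 ± 0.12, adjusted p = 0.0197). The C2 groups overlapped, and leaving out HFD replicate 14, HFD replicate 17 or EtOH replicate 21 ended the call (adjusted p = 0.055, 0.051 and 0.109). Hepatocyte markers were lower for 2 of 10 genes in EtOH and 3 of 10 in DDC+EtOH, with medians of -0.33 and -0.14, and their part in these falls was not tested.

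The fall after DDC counted 15 members with all 40 libraries in the fit, 7 with the DDC+HFD and DDC+EtOH libraries alone and 9 without the 4 libraries high in S100a8. Over all 14355 genes tested, the lower calls in these fits numbered 1151, 355 and 718, so the drop was not particular to the members. C6, C8a, C8b, C9, Hc, Mbl2 and C4b were called lower in each of these 3 fits. Without those 4 libraries, C1qa, C1qb, C1qc, Cfp, Fcna and Itgb2 were called higher, 6 members against 0, which leaves DDC+HFD with replicates 30 and 36 only, both among the libraries over 1000 CPM of pancreatic transcripts. Over all genes tested that fit called 720 higher, against 1224 with all 40 libraries. With library totals 4 members were higher and 14 lower, beside 1962 and 710 of all genes tested. C8g was not called lower after DDC with only the groups compared (adjusted p = 0.094) or without the 7 libraries with pancreatic transcripts (0.249). Without earlier DDC, the fit of the HFD and EtOH libraries alone also called C4b, Cfi and Mbl1 lower (adjusted p = 0.019, 0.045 and 0.032). Over all genes tested it called 1380 lower, against 806 with all 40 libraries. The larger count of lower calls after DDC thus did not hold in the fits of the compared groups alone, for the members or over all genes tested.

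The test of the difference between the ethanol effects called 0 of 31 members and 0 of 14355 genes (0% higher and 0% lower) by edgeR's quasi-likelihood test. At an unadjusted p under 0.05 there were 739 genes and 1 member (Cfd), and DESeq2 called 1 gene higher, 2 lower and 0 members. For C6 the difference was -0.02 ± 0.29 with a 95% interval of -0.59 to 0.54, for C8a -0.89 to 0.03 and for C8b -0.82 to 0.02. These intervals leave room for differences of those sizes.

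**Figure D4:**
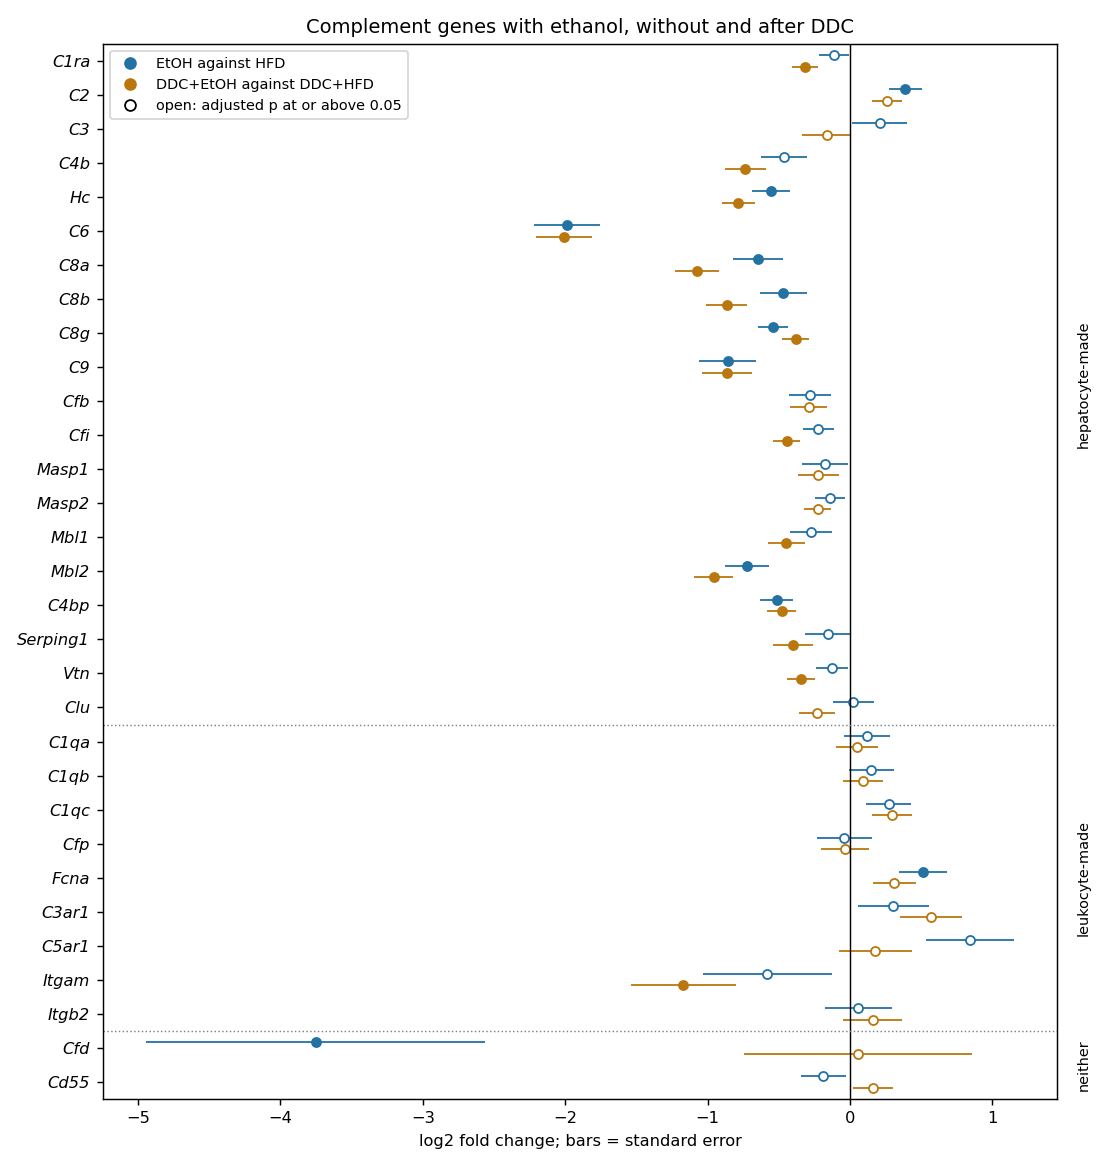
Log2 fold changes of the 31 members with ethanol, in EtOH against HFD and in DDC+EtOH against DDC+HFD, with standard errors as bars and filled points past an adjusted p of 0.05. C6 lies near -2 in both, and most hepatocyte-made members lie below 0.

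Among the leukocyte-made members, Fcna measured 50.9 to 71.0 (median 53.9) CPM in HFD and 71.5, 98.3, 74.6 and 89.4 CPM in EtOH livers (log2 0.51 ± 0.17, adjusted p = 0.0360). All 4 EtOH livers lay above the 6 HFD livers, and leaving out HFD replicate 14, 15, 17 or 19 or EtOH replicate 21 or 23 ended the call (adjusted p up to 0.149). Itgam was called lower in DDC+EtOH against DDC+HFD, at 2.99 to 9.75 (median 6.67) CPM (log2 -1.17 ± 0.37, adjusted p = 0.0258). It turned to 0.95 (adjusted p = 0.175) without the 4 DDC+HFD libraries high in S100a8, and the call ended without DDC+HFD replicate 32, DDC+HFD replicate 33 or DDC+EtOH replicate 38 (adjusted p = 0.083, 0.09 and 0.071). In this comparison 5 of 6 neutrophil markers were lower. C5ar1 (log2 0.84 ± 0.31 without DDC, adjusted p = 0.0628, and 0.18 ± 0.25 after DDC) and C3ar1 (log2 0.30 ± 0.25 and 0.57 ± 0.21) were not called.

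Cfd was called lower in EtOH livers, at 0.156, 0.616, 0.329 and 0.442 CPM against 1.38 to 12.7 (median 5.29) CPM in HFD (log2 -3.75 ± 1.19, adjusted p = 0.0314). The groups did not overlap, leaving out HFD replicate 15 or any of the 4 EtOH libraries ended the call (adjusted p up to 0.0807), and the fit with sequencing lane as a term gave an adjusted p of 0.096. After DDC it was 0.0751 to 8.83 (median 2.66) CPM without and 0 to 18.6 (median 0.487) CPM with ethanol (log2 0.06 ± 0.80). The highest of these, 18.6 CPM, was DDC+EtOH replicate 39, which also had the highest Adipoq of the 40 libraries at 3.74 CPM. Without that library the log2 fold change was -3.16 (adjusted p = 0.0042). Adipoq was at 0 to 0.0822 CPM in EtOH and 0 to 1.37 CPM in HFD livers, while the 5 fat markers summed to 8.78 to 28.4 and 2.83 to 9.98 CPM. Without the libraries over 1 CPM of Adipoq the log2 fold change of Cfd in EtOH against HFD was -3.76 (adjusted p = 0.0023).

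Of the further complement genes, Susd4 fell in both settings (log2 -1.15 ± 0.29 and -2.42 ± 0.30), Cd93 rose in both (log2 0.56 ± 0.12 and 0.60 ± 0.11) and Colec11, a collectin of the lectin route, rose in both (log2 0.53 ± 0.09 and 0.30 ± 0.08). C4a fell without DDC (log2 -1.11 ± 0.36). After DDC, Itgax rose (log2 1.23 ± 0.34), Fcnb fell (log2 -5.39 ± 0.93, a fitted value that depends on the prior count, to 0 to 0.0866 CPM) and Apcs fell (log2 -1.35 ± 0.37), in all 3 higher and 9 lower of 28, beside 8.53% and 8.02% of all genes.

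In DDC+EtOH against EtOH, which asks what earlier DDC changed in ethanol-fed livers, 1 of 31 members was higher and 1 lower, beside 4.12% and 2.57% of all genes. C3ar1 measured 7.86, 6.78, 6.74 and 5.90 CPM in EtOH and 7.12 to 23.3 (median 11.8) CPM in DDC+EtOH livers (log2 0.95 ± 0.25, adjusted p = 0.0148). The groups overlapped, and leaving out EtOH replicate 23 or DDC+EtOH replicate 40 ended that call (adjusted p = 0.056 and 0.058). C8g measured 217, 226, 236 and 212 CPM and 143 to 207 (median 174) CPM (log2 -0.33 ± 0.10, adjusted p = 0.0463), with no overlap between the groups, and 25 of 40 fits without 1 library ended the call (adjusted p up to 0.136). Without DDC+EtOH replicate 43 the count of lower members was 4. C7 (log2 2.06 ± 0.35), Itgax (log2 1.86 ± 0.41) and Cd93 (log2 0.39 ± 0.12) were higher and Susd4 (log2 -2.27 ± 0.32) and Colec10, a collectin (log2 -0.64 ± 0.15), lower among the further genes. Over the same comparison 4 of 6 recruited-macrophage and 3 of 6 bile duct markers were higher.

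The sums by library set the groups side by side. C3 made up 33.1 to 35.4% of the hepatocyte-made CPM in Control 0D, 45.0 to 50.7% in DDC 0D and 42.6 to 56.2% in DDC+EtOH livers. The DDC+EtOH range overlapped the 36.2 to 47.6% of DDC+HFD livers. The leukocyte-made members reached 1.82 to 2.51% of the hepatocyte-made CPM in DDC 0D, 1.20 to 1.54% in EtOH and 1.25 to 2.24% in DDC+EtOH livers. For these members the ethanol groups' comparators held 0.987 to 1.18% in HFD and 0.862 to 1.52% in DDC+HFD livers, and DDC+HFD overlapped DDC+EtOH. The ratio of C8a to C8b, whose products assemble in equal parts, is given as a ratio of CPM and not of molecules. It was 2.03 to 2.26 in Control 0D and 2.71 to 4.58 in DDC 0D livers. In Control 28D it was 2.17 to 2.91, in HFD 2.98 to 3.89 and in EtOH livers 2.76 to 3.42. After DDC it was 2.14 to 2.71 in DDC+Cont, 3.00 to 3.51 in DDC+HFD and 2.41 to 3.37 in DDC+EtOH livers.

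**Figure D5:**
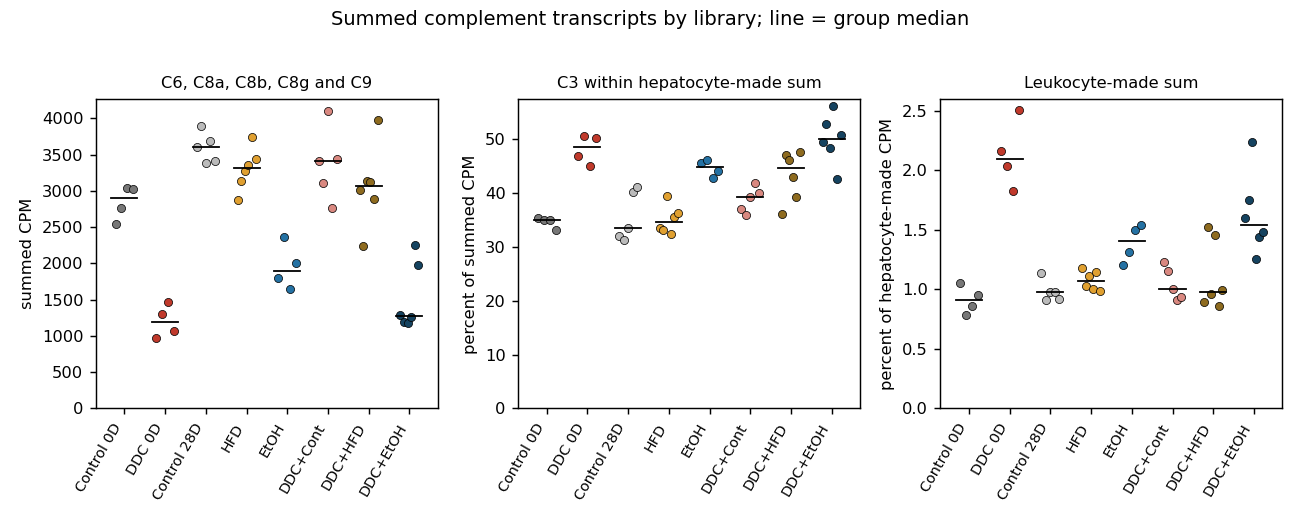
Summed CPM of C6, C8a, C8b, C8g and C9 (without Hc), the percent of hepatocyte-made CPM held by C3, and the leukocyte-made CPM as a percent of the hepatocyte-made CPM, in each of the 40 libraries by group, with the group median as a line. The median sums of these 5 components are lowest in DDC 0D, DDC+EtOH and EtOH livers, and DDC+EtOH and DDC+HFD overlap.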

How the data were processed

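Poly(A) RNA of total liver was sequenced in 40 libraries. Raw read counts per gene were deposited by the authors and used as counts, without the rows that name no gene. GSNAP, DESeq2 1.12.3 and the build mm10 are listed, with no role stated, per the submitters' processing notes. How reads were assigned to genes, by which annotation and whether by strand, was not given in the sources used here. Depth was 7197939 to 26398061 reads on genes (median 13653548), and no 2 replicates differed by less than sampling noise. Members, lists, marker genes and tests were chosen with earlier results of these data known.

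All 40 libraries were fitted in one model with 8 group coefficients using edgeR 4.0.16 (R 4.3.3): TMM factors, filterByExpr (14355 of 24499 genes), robust quasi-likelihood tests and Benjamini-Hochberg adjustment over all genes tested, with calls at an adjusted p under 0.05. Standard errors are the log2 fold change over the square root of F. The test was tried on simulated counts first. Genes named with every library value were the up to 3 members with the largest rise and fall called in each comparison, C3, and members called in an interaction. The up to 3 further complement genes with the largest called rise and fall at a group mean of at least 1 CPM were also named, except 1 result that is not reported here, and other genes were chosen after their values were seen. Positions come from GENCODE vM21 and promoters from RefSeq (GRCm38.p6).

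Alternatives were median-ratio factors, library totals, no filter, a stricter filter, a model term for lane, no robust estimation, only the groups compared, leaving out 7 libraries over 1000 CPM of pancreatic markers, DESeq2 1.42.0, and each library left out. Leaving out 4 libraries over 50 CPM of S100a8, or 4 over 1 CPM of Adipoq, was added after seeing the data. The libraries ran on 6 lanes with at most 2 of a group in a lane, too few for values within a lane, so lane was fitted as a term.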

Additional observations from a re-analysis of the deposited data

Results flagged for a closer look

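Of 248 groups of values (31 members in 8 groups), 14 held a library whose gap to its neighbour was large for the range of its group by Dixon's test, and chance flags about 1 in 20. In Control 0D these were Clu at 968 CPM in replicate 1 (low), C5ar1 at 0.926 CPM in replicate 2 (high) and Itgb2 at 7.51 CPM in replicate 2 (low). In DDC 0D it was C8g at 90.5 CPM in replicate 6 (low). In Control 28D, Masp1 was high at 154 CPM in replicate 13 and C5ar1 at 2.28 CPM in replicate 12.

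In DDC+Cont, replicate 26 was high in Cfi at 942 CPM and in Mbl2 at 352 CPM, and replicate 28 in Masp2 at 226 CPM. In DDC+HFD, C6 was low at 201 CPM in replicate 32, while replicate 37 was high in C8b at 599 CPM and in Cfi at 1140 CPM. In DDC+EtOH, Masp1 was high at 134 CPM in replicate 41 and Cfd at 18.6 CPM in replicate 39.

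The DDC effect differed between the stages for 20 members in the test of the difference (later effect minus effect at 0D, log2). It was positive for C1ra (0.40), Masp2 (0.62), Vtn (0.67), Serping1 (0.68), Mbl2 (1.02), C9 (1.05), C8a (1.19), C8g (1.42), Mbl1 (1.49), C8b (1.81) and Cfd (4.91). It was negative for Cfp (-0.93), C1qa (-1.23), C1qc (-1.31), Clu (-1.40), C1qb (-1.57), Itgb2 (-2.00), C3ar1 (-2.23), C5ar1 (-2.74) and Itgam (-3.34). The stages also differ in the control diet period, and C4b, Hc, Cfi, Serping1 and C1qb were called higher in Control 28D than in Control 0D.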

How the results depend on the processing

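Of 341 values (31 members in 11 comparisons), 101 were called, and 70 of these kept their call in all 11 alternative settings and without each of the 40 libraries. Depth limits the lowest members, with C5ar1 under 1 CPM in Control 0D and Cfd under 1 CPM in DDC 0D and EtOH livers. The called changes of Cfd involve these groups and thus rest on few reads. No paired analysis was possible because the replicate numbers are unique to each library and no groups share them.

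The 5 reversed values were as follows. Cfi in DDC 0D against Control 0D went from -0.09 to 0.27 (log2) with library totals. In DDC+EtOH against DDC+HFD, Cfp went from -0.04 to 0.67 and Itgam from -1.17 to 0.95 without the libraries high in S100a8, and Cfd from 0.06 to -3.16 both without the libraries high in Adipoq and without DDC+EtOH replicate 39, with 0.47 as the highest value without 1 library.

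Members called higher in Control 28D against Control 0D numbered 5, against 14 with only the groups compared, 11 without the libraries with pancreatic transcripts, 11 without those high in S100a8 and 11 by DESeq2, and 2 to 9 without 1 library. In HFD against Control 28D, 1 was lower, against 0, with only the groups compared. In EtOH against HFD, 2 were higher, against 1 with no filter, 1 without the pancreatic libraries, 0 without those high in Adipoq and 0 to 3 without 1 library. In DDC+HFD against DDC+Cont, 1 was higher, against 0 with library totals, no filter, lane as a term, only the groups compared, and without the libraries high in S100a8 or in Adipoq, 6 without the pancreatic libraries, 2 by DESeq2 and 0 to 3 without 1 library, and 0 to 1 was lower without 1 library. The 6 without the pancreatic libraries were C1qa, C1qb, C1qc, Cfp, Itgam and Itgb2, beside 385 higher over all genes tested, against 268. That fit leaves DDC+HFD with replicates 32, 35 and 37 only, all among the libraries high in S100a8.

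In DDC+EtOH against DDC+HFD, 0 were higher, against 4 with library totals, 1 with lane, 6 without the libraries high in S100a8, 1 by DESeq2 and 0 to 1 without 1 library, and 15 were lower, against 7 with only the groups compared and 9 without the libraries high in S100a8. Over all genes tested 1151 were lower, against 355 with only the groups compared and 718 without the libraries high in S100a8. In DDC+EtOH against EtOH, 1 was higher, against 2 with median-ratio factors, a stricter filter, lane or robust estimation off, 3 with library totals, without the libraries high in S100a8 or by DESeq2, 6 without the pancreatic libraries, 0 with only the groups compared and 0 to 2 without 1 library. In that comparison 1 was lower, against 0 with median-ratio factors, library totals, no filter, a stricter filter, only the groups compared, and without the pancreatic libraries or those high in Adipoq, 2 by DESeq2 and 0 to 4 without 1 library. Over all genes tested, that comparison had 591 higher, against 902 without the pancreatic libraries. The cause was not tested in any of these.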
